A study of Mus musculus with 8 samples.

Results

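DNA replication and S-phase genes are 45 genes that load, start and run the replication machinery, supply deoxynucleotides to it and restore chromatin behind the fork. They were chosen by gene symbol from the 56748 genes of the count table, with earlier results of these data known. All 45 symbols were found, and all 45 had enough counts to be tested. RNA was sequenced from primary cardiac fibroblasts of 1-day-old C57BL/6J mice (wild type), the collagen-producing stromal cells of the heart. In 4 cultures TGF-β1, a cytokine that turns fibroblasts into matrix-producing myofibroblasts, had been added at 10 ng/mL for 48 h, and 4 cultures were untreated. The replicates came from different litters, the cells were those that adhered within 40 min of plating after collagenase digestion, and both groups were grown in serum. Mirin, an inhibitor that the treatment protocol also names, is given for none of the 8 libraries.

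A cell copies its genome once per division. In G1 phase the origin recognition complex, CDC6 and CDT1 load the ring-shaped MCM2-7 helicase onto origins, which licenses them. In S phase the kinases CDC7 and CDK2 recruit CDC45 and the GINS complex to the helicase, and DNA polymerases then follow the unwound strands. Transcription of many of these genes is switched on by E2F factors as cells leave quiescence, and TGF-β is known for halting epithelial cells in G1, while its effect on fibroblast division varies with the culture.

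All 45 genes fell with TGF-β1 and none rose (quasi-likelihood test of edgeR, called under 0.05 after Benjamini-Hochberg adjustment over all 13960 genes tested). Over all genes tested, 18.5% fell and 17.6% rose. Since the 45 were chosen with earlier results known, their count is not independent of the choice. Of 60 further replication and S-phase genes tested, 44 fell, 2 rose and 14 were not called. Of the 45, Cdc6, Mcm10, Gins1 and Fen1 had enough counts to be tested only through the untreated libraries. The same held for 526 of the 13960 genes tested. The median change of the 45 was −1.40 on the log2 scale, a 2.64-fold lower level, against 0.01 over all genes tested, and it ran from −3.24 for Cdc6 to −0.26 for Gins4. In 32 of the 45 the fall was at least 2-fold, which held for 4.63% of all genes tested, and in 10 it was at least 4-fold, against 1.33% of all genes. In 43 of the 45 every TGF-β1 library lay below every untreated library, against 17.4% of all genes tested, and Tyms and Rfc2 were the exceptions. Summed over the 45 genes, the level was 501 to 523 CPM (counts scaled to library size with TMM factors) in the TGF-β1 libraries, against 1063 to 1126 CPM in the untreated libraries. These are bulk cultures, so fewer cells in S phase and less of each RNA per cell cannot be told apart.

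**Figure D1:**
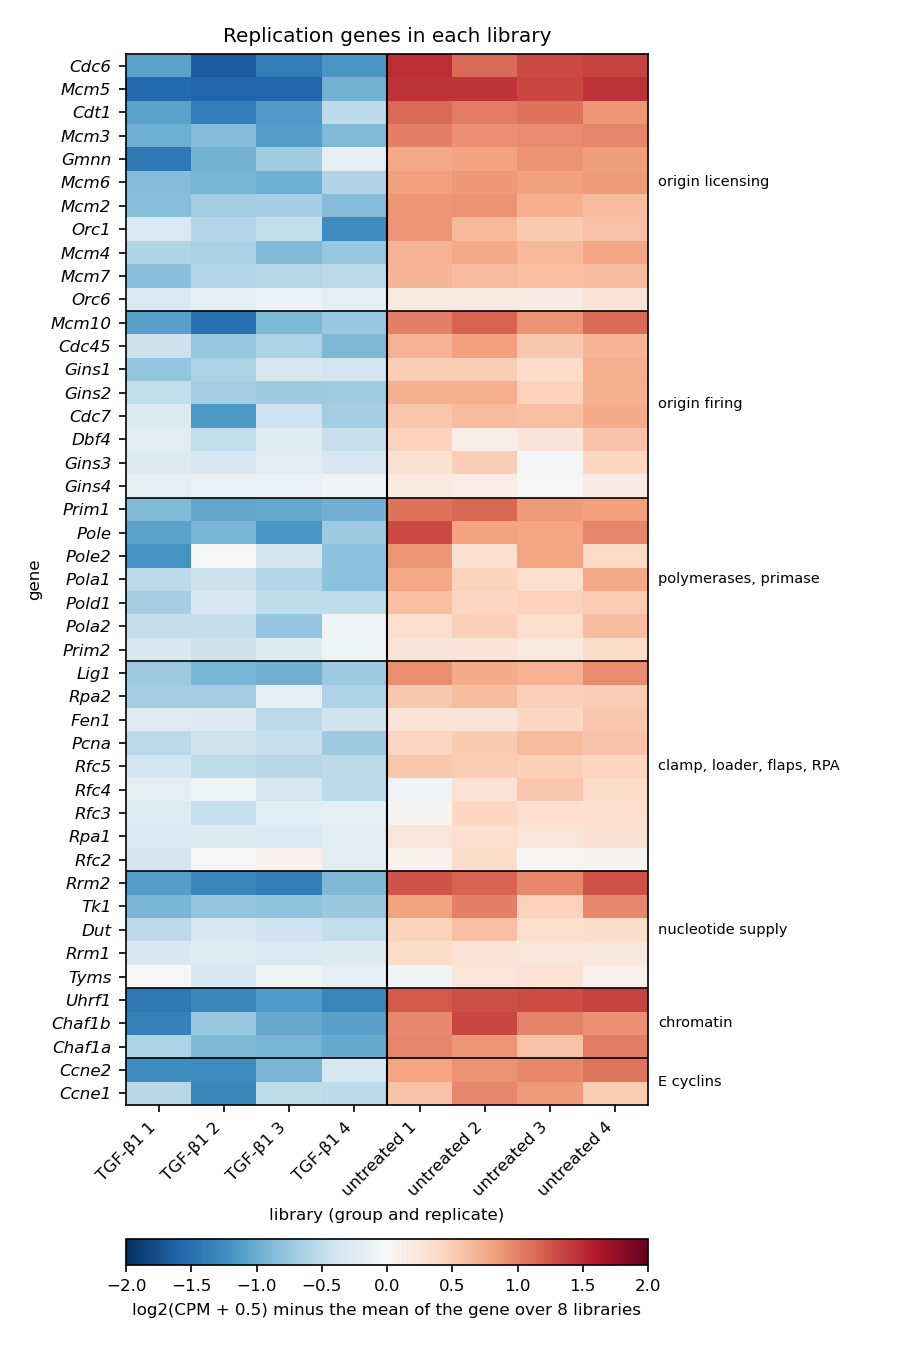
Heat map of the 45 genes (rows, grouped by role) in the 4 TGF-β1 and 4 untreated libraries (columns). Colour gives log2(CPM + 0.5) minus the mean of that gene over the 8 libraries. The TGF-β1 columns are blue and the untreated columns red for nearly every gene, with Gins4, Rfc2 and Tyms the palest rows, and Rfc2 and Tyms the only ones whose groups overlap.

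The 8 libraries held 14340740 to 17176898 counts. When counts were scaled by library totals alone, 1301 genes rose and 3673 fell in the whole table, against 2451 and 2579 with TMM, and the 45 genes fell under both. Fibroblast markers were abundant, and of 11 such markers 8 fell and 3 rose (Col1a1, Col1a2 and Pdgfrb), with a median of −0.52. Their sum, to which Col1a1 alone gave a mean of 10701 CPM with TGF-β1 and 6974 CPM untreated, was 20848 to 22474 CPM with TGF-β1 and 18180 to 19983 CPM untreated. Of 12 cardiomyocyte markers 11 fell, with a median of −0.81, and their sum was 378 to 458 CPM with TGF-β1 and 726 to 797 CPM untreated. Neonatal cardiomyocytes can still enter S phase, and the part of these cells in the results below was not tested. Endothelial markers (2 of 8 rose, 2 fell) summed to 75.3 to 83.1 CPM with TGF-β1 and 80.5 to 81.3 CPM untreated. Macrophage and leukocyte markers (1 of 8 rose, 1 fell) summed to 166 to 202 CPM with TGF-β1 and 183 to 223 CPM untreated. Epicardial and mesothelial markers (1 of 7 rose, 3 fell) summed to 857 to 892 CPM with TGF-β1 and 1081 to 1142 CPM untreated. Of 7 mural cell markers 4 were tested, 2 rose (Cspg4 by 1.60 and Rgs5 by 2.42 on the log2 scale) and 1 fell (Notch3). The 4 summed to 83.6 to 95.4 CPM with TGF-β1 and 62.3 to 71.2 CPM untreated, and Higd1b had 0 counts in 7 of the 8 libraries. Of 5 red cell genes (Hba-a1, Hba-a2, Hbb-bs, Hbb-bt and Alas2) none was tested, and Hba-a1, Hba-a2 and Hbb-bt had 0 counts in every library. Ribosomal RNA genes took 0.0322% of the counts in untreated replicate 1 and 1.05 to 2.47% in the other 7 libraries, and leaving out these genes and Lars2 left all 45 called, as did leaving out untreated replicate 1.

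Promoter sequences are shown because E2F factors are the known regulators of this gene set. RefSeq windows from 250 bases before to 50 bases after the transcription start (build GRCm38.p6) were found for 36 of the 45 genes (42 windows, since some genes have more than 1 start), and Ccne2, Gins1, Gins2, Gins4, Gmnn, Mcm4, Pole, Prim2 and Rfc2 had none. As examples, the windows of the 2 genes with the deepest falls, of 2 genes with intermediate falls, and of 2 with small falls follow. Each is written 5′ to 3′ on the strand of its gene. Capitals mark matches to TTTCCCGC, TTTCGCGC, TTTGCCGC or TTTGGCGC on either strand, 4 spellings of the E2F site.
Cdc6, chr11:98907901-98908200, plus strand: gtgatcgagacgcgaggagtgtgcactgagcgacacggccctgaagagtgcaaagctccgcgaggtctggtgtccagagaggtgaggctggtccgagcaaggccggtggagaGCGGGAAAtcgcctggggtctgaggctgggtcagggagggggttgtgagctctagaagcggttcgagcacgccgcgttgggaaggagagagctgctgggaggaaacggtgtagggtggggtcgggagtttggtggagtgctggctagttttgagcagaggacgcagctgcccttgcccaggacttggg
Mcm5, chr8:75109259-75109558, plus strand: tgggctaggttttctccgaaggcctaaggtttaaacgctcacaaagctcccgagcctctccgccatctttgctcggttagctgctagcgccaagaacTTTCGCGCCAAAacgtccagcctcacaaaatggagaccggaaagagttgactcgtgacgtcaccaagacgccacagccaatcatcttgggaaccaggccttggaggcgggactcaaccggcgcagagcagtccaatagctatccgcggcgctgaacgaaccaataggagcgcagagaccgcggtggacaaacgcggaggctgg
Mcm6, chr1:128359656-128359955, minus strand: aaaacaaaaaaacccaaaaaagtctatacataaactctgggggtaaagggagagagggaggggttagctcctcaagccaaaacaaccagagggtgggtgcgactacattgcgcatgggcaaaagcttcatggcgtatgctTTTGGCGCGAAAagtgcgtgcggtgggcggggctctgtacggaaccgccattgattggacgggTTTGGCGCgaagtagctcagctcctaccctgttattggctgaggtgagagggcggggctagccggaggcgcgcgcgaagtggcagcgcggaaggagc
Pola1, chrX:93632106-93632405, minus strand: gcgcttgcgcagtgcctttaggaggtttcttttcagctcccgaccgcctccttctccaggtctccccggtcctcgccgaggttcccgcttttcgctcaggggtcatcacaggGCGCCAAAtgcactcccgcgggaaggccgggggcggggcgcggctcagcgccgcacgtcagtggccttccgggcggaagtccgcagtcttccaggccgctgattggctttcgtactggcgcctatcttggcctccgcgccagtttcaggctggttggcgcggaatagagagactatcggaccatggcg
Rfc3, chr5:151651159-151651458, minus strand: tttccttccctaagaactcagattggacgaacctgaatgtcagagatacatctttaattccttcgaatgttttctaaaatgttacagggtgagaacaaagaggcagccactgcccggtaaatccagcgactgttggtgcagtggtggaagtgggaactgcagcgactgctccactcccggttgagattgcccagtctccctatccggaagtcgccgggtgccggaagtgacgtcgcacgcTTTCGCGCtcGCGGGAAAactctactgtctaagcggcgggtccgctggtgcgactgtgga
Tyms, chr5:30073576-30073875, minus strand: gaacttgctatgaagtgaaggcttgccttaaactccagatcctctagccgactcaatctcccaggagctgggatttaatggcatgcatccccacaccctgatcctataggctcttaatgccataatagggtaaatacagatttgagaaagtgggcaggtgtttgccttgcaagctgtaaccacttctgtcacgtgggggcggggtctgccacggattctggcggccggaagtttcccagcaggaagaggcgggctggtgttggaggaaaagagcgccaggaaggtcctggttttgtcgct
In the Mcm5 and Mcm6 windows 2 matches on opposite strands overlap by their GCGC core and form 1 longer run in capitals, and Mcm6 has a further match nearer its start. In the Rfc3 window 1 match begins 10 bases before the start and a second begins at the start. Tyms has no match in its window. The windows shown are not typical of the set, since all but that of Tyms hold a match, while 22 of the 36 genes with a window hold none.

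Matches to these 4 spellings occurred in the windows of 14 of the 36 genes (38.9%), against 481 of the 10313 tested genes that have a window (4.66%). Among other replication and S-phase genes the share was 17 of 53 (32.1%), and among 20 mitosis genes, of which 17 have a window, it was 1 (5.88%). The CHR element TTTGAA, through which mitotic genes are known to be repressed, had the opposite distribution, with 6 of 36 (16.7%), against 12 of 17 mitosis genes (70.6%) and 14.3% of the tested genes. CCAAT, the box bound by NF-Y, occurred in 20 of 36 (55.6%), in 14 of the 17 mitosis genes (82.4%) and in 42.9% of the tested genes. All 3 motifs were searched on both strands. The median GC content of the windows was 61.3% for the replication genes and 60.7% for the tested genes. The 14 genes with an E2F match had a median log2 fold change of −1.60, with a range of −3.24 to −0.61, and the 22 without had −1.11, with a range of −2.52 to −0.30. The ranges overlap over most of their length, and the difference was not tested.

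**Figure D2:**
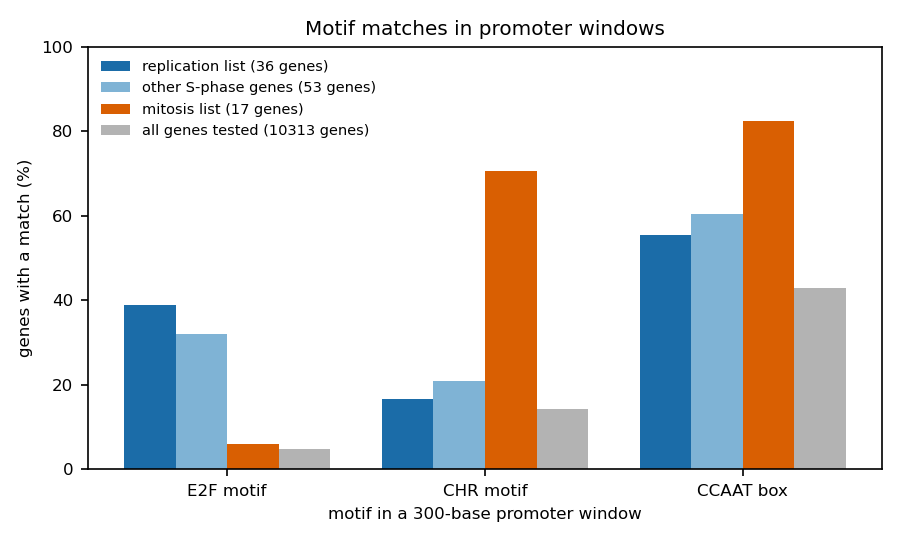
Share of genes (y axis, percent) whose promoter window holds a match to the E2F spellings, TTTGAA or CCAAT, in the replication genes, the other replication and S-phase genes, the mitosis genes and all tested genes. E2F matches stand at 38.9% in the replication genes and 5.88% in the mitosis genes, and TTTGAA at 16.7% and 70.6%.

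Origin licensing genes had 11 members, all fell, 10 of them at least 2-fold, and the median was −1.69. Their summed level was 115 to 127 CPM in the TGF-β1 libraries, against 356 to 373 CPM in the untreated libraries. Cdc6 (ENSMUSG00000017499, chr11:98798627-98814766 on the plus strand, GRCm39), whose product brings the helicase to the origin, had 0.987, 0.484, 0.704 and 0.895 CPM in the 4 TGF-β1 libraries, against 8.17, 6.37, 7.35 and 7.52 CPM in the 4 untreated ones. The groups lay far apart, although 7 to 15 reads stood behind each TGF-β1 value, and the change of −3.24 ± 0.21 (log2 fold change ± SE, adjusted p = 3.17e-11 in edgeR) was the deepest fall of the 45. Cdt1, its partner in loading, averaged 3.23 ± 0.99 CPM with TGF-β1 and 14.7 ± 1.19 CPM untreated (SD, n = 4 each), with a log2 fold change of −2.16 ± 0.15. Gmnn encodes geminin, the inhibitor of CDT1, and it fell too, by 1.76 ± 0.21 on the log2 scale. The ratio of Cdt1 to Gmnn counts was 1.31 to 2.69 in the TGF-β1 libraries and 1.78 to 2.27 in the untreated libraries, and these overlap (exact permutation test, two-sided, p = 0.229).

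The 6 subunits of the MCM2-7 ring, which work as 1 hexamer with 1 copy of each, all fell, and the differences between them were not tested. Mcm5 had 4.16, 4.08, 4.08 and 6.62 CPM with TGF-β1, against 36.9, 37.0, 34.4 and 37.0 CPM untreated. Its log2 fold change of −2.92 ± 0.11 was the deepest of the ring, and even the highest TGF-β1 library, replicate 4, stood far below the untreated ones. The log2 fold changes of the others were −1.95 ± 0.07 for Mcm3, −1.69 ± 0.07 for Mcm6, −1.58 ± 0.07 for Mcm2, −1.46 ± 0.07 for Mcm4 and −1.28 ± 0.07 for Mcm7. Mcm4, the ring member with the highest level per deposited length, had 21.7, 20.9, 17.7 and 19.4 CPM with TGF-β1, against 53.3, 56.4, 52.8 and 57.3 CPM untreated. Per deposited length, the 6 subunits ranged from 7.38 FPKM (Mcm2) to 15.1 FPKM (Mcm4) untreated, and from 1.17 FPKM (Mcm5) to 5.46 FPKM (Mcm4) with TGF-β1. Mcm5 was the subunit that dropped furthest in the order of levels, to 26th of the 45 genes with TGF-β1, against 10th untreated. The deposited lengths fall short of the exonic bases in GENCODE M39 by unlike degrees. They are 3589 against 5347 for Mcm4, 4666 against 5432 for Mcm6 and 3993 against 6838 for Mcm5. The order of levels between subunits is therefore uncertain.

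Both chosen subunits of the origin recognition complex fell, and the ratio between them, given further on, did not pass its test after adjustment (p = 0.0571, exact permutation test). Orc1, the subunit whose amount rises and falls with the cell cycle in human cells, had 2.54, 2.00, 2.18 and 1.07 CPM with TGF-β1, against 6.44, 5.50, 4.92 and 5.13 CPM untreated (log2 fold change −1.51 ± 0.21). Orc6 had 14.0, 15.1, 16.0 and 15.1 CPM with TGF-β1, against 19.8, 19.6, 19.4 and 20.9 CPM untreated. These groups did not overlap, and the log2 fold change was −0.40 ± 0.08 (adjusted p = 2.70e-04). The other 4 subunits were not called, with −0.00 ± 0.07 for Orc2, −0.12 ± 0.07 for Orc3, 0.14 ± 0.07 for Orc4 and −0.13 ± 0.09 for Orc5. Orc2 had 24.1, 24.3, 28.1 and 23.9 CPM with TGF-β1, against 26.0, 25.9, 24.7 and 23.8 CPM untreated, and its groups overlap. The MCM relatives outside the ring also fell, with log2 fold changes of −0.77 ± 0.19 for Mcm8, −0.50 ± 0.13 for Mcm9 and −0.23 ± 0.06 for the MCM-binding protein gene Mcmbp.

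**Figure D3:**
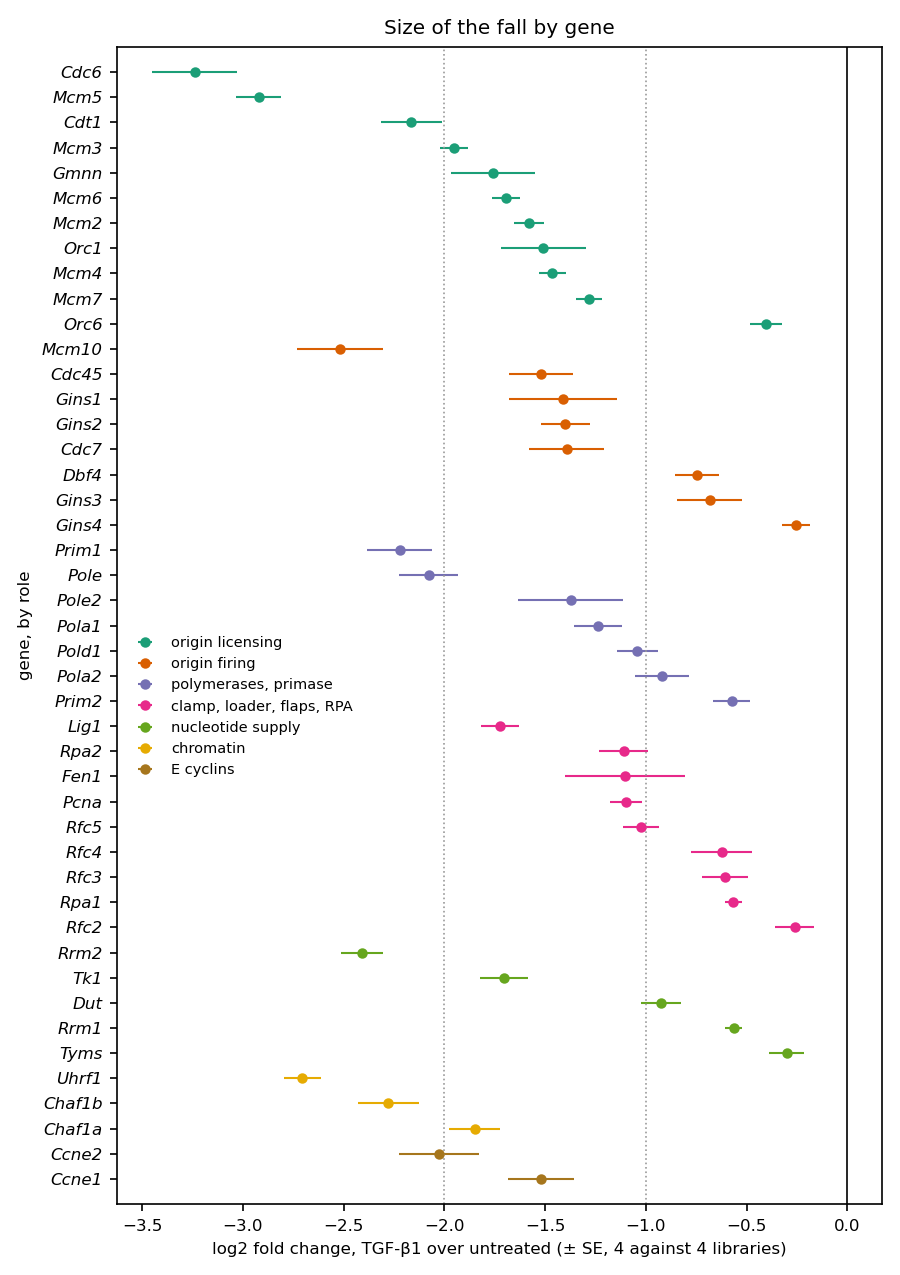
Log2 fold change of each of the 45 genes, TGF-β1 over untreated (x axis), ordered by role and by size; points are estimates and bars are ± 1 SE from 4 against 4 libraries. Dotted lines mark a 2-fold and a 4-fold fall. Every point lies left of 0, from −3.24 for Cdc6 to −0.26 for Gins4.

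Origin firing genes had 8 members, all fell, 5 of them at least 2-fold, with a median of −1.40. Mcm10, whose product activates the loaded helicase, had 0.987, 0.622, 1.20 and 1.37 CPM with TGF-β1, against 5.84, 6.63, 5.39 and 6.44 CPM untreated. Every TGF-β1 library was far below the untreated ones, and the log2 fold change was −2.52 ± 0.21 (adjusted p = 2.45e-09). The helicase partner Cdc45 fell by 1.52 ± 0.16 on the log2 scale. Cdc7, the kinase that starts firing, fell by 1.39 ± 0.19, and its activating subunit Dbf4 fell by 0.74 ± 0.11. The 4 GINS subunits, which form 1 complex, spread from −1.41 ± 0.27 for Gins1 and −1.40 ± 0.12 for Gins2 to −0.68 ± 0.16 for Gins3 and −0.26 ± 0.07 for Gins4. Gins4 had 20.1, 21.2, 21.0 and 21.9 CPM with TGF-β1, against 26.2, 25.5, 23.1 and 25.8 CPM untreated. The groups came close without overlapping (adjusted p = 0.00643). Gins4 also had the highest level per length of the 4, at 15.4 ± 0.53 FPKM with TGF-β1 and 18.3 ± 1.05 FPKM untreated, but the deposited length of 1349 bases is shorter than its 5016 exonic bases in GENCODE M39, and FPKM divides by that length.

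Beyond the 8, of 9 further firing and fork genes 8 fell, with a median of −1.68. Clspn (claspin, which carries the checkpoint signal at the fork) fell by 3.00 ± 0.17 on the log2 scale, Ticrr (treslin, a firing factor) fell by 2.94 ± 0.25 and Topbp1 (a scaffold for firing and checkpoint signalling) fell by 0.88 ± 0.05. Donson, a factor for helicase assembly, fell by 0.63 ± 0.16. Mtbp, the binding partner of treslin, was not called at −0.20 ± 0.09 (adjusted p = 0.0761).

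Polymerase and primase genes had 7 members, all fell, 5 of them at least 2-fold, with a median of −1.24. Prim1, the catalytic primase subunit that makes the RNA primers, had 1.97, 1.73, 1.76 and 1.85 CPM with TGF-β1, against 9.23, 9.68, 7.75 and 7.57 CPM untreated. The TGF-β1 values were close together and all far below the untreated ones, at a log2 fold change of −2.22 ± 0.16 (adjusted p = 1.91e-10). Its partner Prim2 had 11.6, 10.7, 12.0 and 13.7 CPM with TGF-β1, against 17.7, 17.8, 17.1 and 19.1 CPM untreated, with −0.57 ± 0.09. Prim2 reads therefore outnumbered Prim1 reads by 5.89, 6.20, 6.80 and 7.42 to 1 in the TGF-β1 libraries, against 1.91, 1.84, 2.21 and 2.52 to 1 in the untreated libraries. The 2 groups of ratios did not overlap, but the difference did not pass its test after adjustment over 10 pairs (p = 0.0571, exact permutation test).

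The catalytic subunit of the leading strand polymerase, Pole, fell by 2.08 ± 0.15 on the log2 scale, and its second subunit Pole2 fell by 1.37 ± 0.26. Pole3 and Pole4, the histone-fold subunits of the same enzyme, were not called, at −0.10 ± 0.06 (adjusted p = 0.180) and 0.12 ± 0.06 (adjusted p = 0.0980). For the lagging strand polymerase, the catalytic Pold1 had 7.05, 9.19, 8.02 and 7.99 CPM with TGF-β1, against 17.9, 15.8, 16.0 and 16.8 CPM untreated (−1.04 ± 0.10). Pold1 values of the 2 groups were well separated. Among its accessory subunits, Pold2 fell by 0.22 ± 0.07, while Pold3 at −0.30 ± 0.12 (adjusted p = 0.0507) and Pold4 at 0.19 ± 0.11 (adjusted p = 0.186) were not called. Pola1, the polymerase that extends primers, fell by 1.24 ± 0.12, and its subunit Pola2 fell by 0.92 ± 0.13. Whether subunits of 1 enzyme differed was tested only for the pairs listed further on.

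**Figure D4:**
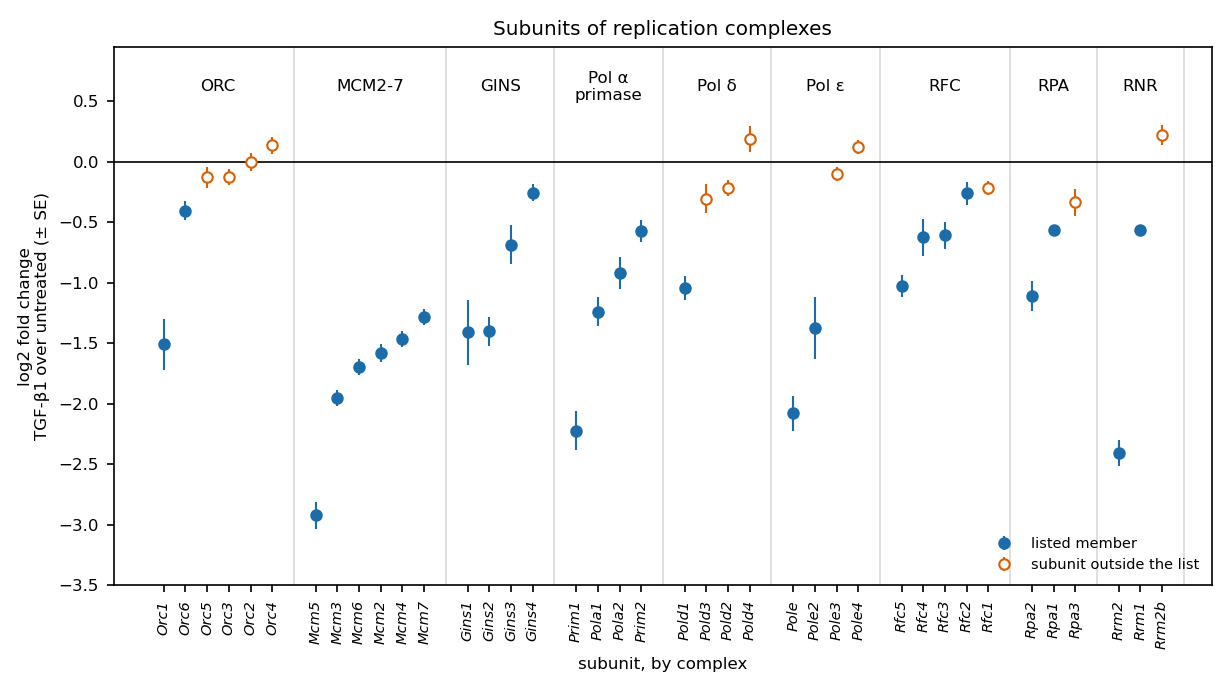
Log2 fold change, TGF-β1 over untreated (y axis, ± SE, 4 against 4 libraries), of the subunits of 9 replication complexes (x axis), with filled points for the 45 chosen genes and open points for other subunits. Within the origin recognition complex the points run from −1.51 (Orc1) to 0.14 (Orc4), and within polymerase epsilon from −2.08 (Pole) to 0.12 (Pole4).

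Genes of the sliding clamp, its loader, Okazaki fragment processing and single-strand binding had 9 members, and all 9 fell, 5 of them at least 2-fold, with a median of −1.02. Lig1, the ligase that seals Okazaki fragments, had 8.32, 7.26, 6.97 and 8.35 CPM with TGF-β1, against 27.4, 24.0, 23.2 and 27.5 CPM untreated. The groups were far apart, at −1.72 ± 0.09 on the log2 scale (adjusted p = 1.87e-12). Pcna, the clamp that holds polymerases on DNA, averaged 15.3 ± 1.48 CPM with TGF-β1 and 32.6 ± 1.99 CPM untreated (SD, n = 4 each), with −1.10 ± 0.08. Its pseudogene Pcna-ps2, whose reads the counting could exchange with Pcna, had 131 to 214 counts with TGF-β1 and 267 to 370 counts untreated, with −0.97 ± 0.11. Pclaf, the PCNA-associated factor, fell by 2.95 ± 0.14.

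The flap endonuclease Fen1 had the lowest level per length of the 45 untreated, at 0.603 ± 0.080 FPKM, with 0.280 ± 0.041 FPKM with TGF-β1. Its 8 to 11 reads with TGF-β1 and 20 to 29 reads untreated gave −1.10 ± 0.30 (adjusted p = 0.00562). Of its exonic bases in GENCODE M39, 65.9% are shared with other genes, so its counts are uncertain. Rfc5, a subunit of the loader that opens the clamp, fell by 1.02 ± 0.09, Rfc4 fell by 0.62 ± 0.15 and Rfc3 fell by 0.61 ± 0.11. Rfc2 had 18.6, 24.2, 26.0 and 21.1 CPM with TGF-β1, against 25.7, 31.6, 24.8 and 25.5 CPM untreated. Replicate 3 with TGF-β1 was above 3 of the 4 untreated libraries. The fall of Rfc2, at −0.26 ± 0.10 (adjusted p = 0.0365), was not called without TGF-β1 replicate 1, without TGF-β1 replicate 4 or without untreated replicate 2, nor by limma on log2(FPKM + 1) or log2(FPKM + 0.1), with adjusted p values up to 0.169. Lat2, which shares 24.3% of the exonic bases of Rfc2 on the other strand, fell by 1.19 ± 0.38.

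Rpa1, the large subunit of the single-strand binding protein RPA, which also serves DNA repair, had 73.3, 73.7, 73.1 and 77.1 CPM with TGF-β1, against 107, 114, 107 and 112 CPM untreated. The groups were tight and apart, so a small fall of −0.57 ± 0.04 had an adjusted p of 2.99e-10. Rpa2 fell by 1.11 ± 0.12 and the small subunit Rpa3 fell by 0.33 ± 0.11. Over the 16 further polymerase, clamp loader and RPA genes, 15 were tested (Chtf8 was below the filter), and 11 fell. Among them Chtf18, of the alternative loader used in cohesion, fell by 1.76 ± 0.18, Atad5, which unloads the clamp, fell by 0.89 ± 0.14, and Rfc1, the large loader subunit, fell by 0.22 ± 0.06.

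Nucleotide supply genes had 5 members, all fell, 2 of them at least 2-fold, with a median of −0.92. Rrm2, the subunit of ribonucleotide reductase that is made in S phase and destroyed after it, had 6.42, 5.46, 5.21 and 7.46 CPM with TGF-β1, against 34.9, 32.9, 28.2 and 35.1 CPM untreated. The groups stood far apart, and the log2 fold change was −2.41 ± 0.11 (adjusted p = 4.29e-14). Rrm1, the large subunit that works with either small subunit, had 94.1, 99.4, 95.4 and 97.2 CPM with TGF-β1, against 151, 142, 139 and 137 CPM untreated (−0.56 ± 0.04). The count of Rrm2 was 0.0546 to 0.0767 times that of Rrm1 with TGF-β1, and 0.202 to 0.256 times untreated. That difference did not pass its test after adjustment over 10 pairs (p = 0.0571, exact permutation test). Rrm2b, the alternative small subunit used outside S phase, was called higher, at 0.22 ± 0.08 (adjusted p = 0.0411). That call was lost with library totals (adjusted p = 0.208), upper-quartile factors, DESeq2 and limma, and when TGF-β1 replicate 4 or any 1 of the 4 untreated libraries was left out (adjusted p up to 0.214).

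Tyms, thymidylate synthase, had 21.4, 17.1, 20.3 and 19.0 CPM with TGF-β1, against 20.8, 25.6, 26.3 and 23.1 CPM untreated. TGF-β1 replicate 1 was above untreated replicate 1, so the groups overlap, and the log2 fold change was −0.30 ± 0.09 (adjusted p = 0.00928). Tk1, the cytosolic thymidine kinase of S phase, fell by 1.70 ± 0.12, while Tk2, the mitochondrial thymidine kinase, was called higher at 0.28 ± 0.08 (adjusted p = 0.0113; 0.0753 with library totals). Dut, which removes dUTP, fell by 0.92 ± 0.10. Among the 8 further nucleotide genes 5 fell, 2 rose (Rrm2b and Tk2) and Dctd was not called (−0.24, adjusted p = 0.109). Among those that fell, the salvage kinase Dck fell by 1.14 ± 0.11 and Shmt1, a serine hydroxymethyltransferase of folate metabolism, fell by 0.98 ± 0.12.

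Chromatin genes had 3 members with the deepest median of the 7 roles, −2.28, and a summed level of 11.0 to 12.2 CPM with TGF-β1, against 55.2 to 61.4 CPM untreated. Uhrf1, which brings the maintenance methyltransferase to hemimethylated DNA, had 4.02, 4.42, 5.07 and 4.41 CPM with TGF-β1, against 27.8, 29.2, 29.4 and 30.5 CPM untreated. Its replicates agreed closely in both groups, with −2.70 ± 0.09 (adjusted p = 1.03e-15), the smallest adjusted p of the 45. Chaf1a, the large subunit of the assembly factor CAF-1, had 5.29, 4.29, 4.22 and 3.94 CPM with TGF-β1, against 17.1, 15.9, 13.0 and 17.7 CPM untreated (−1.85 ± 0.13), and its partner Chaf1b fell by 2.28 ± 0.15. Chaf1a shares 51.0% of its exonic bases with Ubxn6, which was not called (−0.05 ± 0.08). Of 10 further chromatin and histone supply genes 9 fell. They include the maintenance methyltransferase Dnmt1 (−1.23 ± 0.06), the remodeller Hells (−2.15 ± 0.11) and the histone chaperone Asf1b (−2.30 ± 0.19), while its paralog Asf1a was not called (−0.25, adjusted p = 0.0783). Rbbp7, a histone-binding subunit shared by many complexes, fell by 0.13 ± 0.04.

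Both E cyclins, the partners of CDK2 at S phase entry, fell. Ccne2 had 1.41, 1.38, 1.90 and 3.10 CPM with TGF-β1, against 7.24, 7.89, 8.29 and 8.95 CPM untreated, and Ccne1 had 4.58, 2.56, 4.79 and 4.71 CPM with TGF-β1, against 10.7, 14.1, 13.1 and 10.1 CPM untreated. Neither pair of groups overlaps, at −2.03 ± 0.20 (adjusted p = 2.62e-08) and −1.52 ± 0.16 (adjusted p = 9.75e-08) on the log2 scale. Of 11 further S-phase control genes 8 fell. Ccna2, the cyclin that follows cyclin E on CDK2, fell by 2.95 ± 0.13, and the repressor E2Fs E2f7 and E2f8 fell by 2.19 ± 0.17 and 2.79 ± 0.26. Of the activator E2Fs, E2f1 fell by 0.55 ± 0.09 (adjusted p = 6.14e-05), while E2f2 (−0.78 ± 0.38, adjusted p = 0.124) and E2f3 (−0.11 ± 0.06, adjusted p = 0.220) were not called.

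The 45 genes were set beside 61 further replication and S-phase genes and 20 mitosis genes. Of the 60 further genes tested, 44 fell, 2 rose and 14 were not called, with a median of −0.55. All 20 mitosis genes fell, 19 of them at least 4-fold, with a median of −2.69 (6.46-fold lower) and a range of −3.30 to −1.71. Among them are the proliferation marker Mki67 (−3.04 ± 0.10), the mitotic kinase Cdk1 (−2.31 ± 0.07) and the spindle factor Tpx2 (−2.45 ± 0.08). The sum over the 20 was 63.3 to 79.4 CPM with TGF-β1, against 437 to 479 CPM untreated. Differences between these lists were not tested.

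In 7 of the 45 the fall was under 1.5-fold, namely Orc6, Gins4, Prim2, Rfc2, Rpa1, Rrm1 and Tyms. Per deposited length, Gins4, Rpa1 and Rrm1 were listed highest in the TGF-β1 cultures, at 15.4, 13.1 and 8.62 FPKM, and the place of Gins4 rests on its short deposited length (1349 against 5016 exonic bases in GENCODE M39). In untreated cultures the order began with Rpa1 (19.4 ± 0.69 FPKM), Gins4 (18.3 ± 1.05 FPKM), Mcm4 (15.1 ± 0.64 FPKM) and Mcm6 (14.3 ± 0.31 FPKM). The values of the first 2 overlap between libraries. The deposited lengths of Rpa1 (5578 against 7910 exonic bases), Mcm4 (3589 against 5347) and Mcm6 (4666 against 5432) are also short. The order by FPKM is therefore uncertain. Rrm2 stood 15th of the 45 with TGF-β1, against 8th untreated, and Uhrf1 29th, against 13th. At the low end Mcm10, Cdc6 and Fen1 were the last 3 in both groups. Mcm10 was at 0.134 FPKM with TGF-β1 and 0.777 FPKM untreated, and Cdc6 at 0.144 FPKM with TGF-β1 and 1.38 FPKM untreated. With Gins1, these 3 passed the filter on low counts only through the untreated libraries, and the other 41 would have passed in the TGF-β1 libraries alone.

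Ratios of 10 partner pairs were compared within libraries, a measure that the scaling between libraries does not touch. Each ratio was tested with a two-sided exact permutation test over the 70 assignments of 4 against 4 libraries, whose smallest p is 0.0286. In 5 pairs the groups did not overlap, with log2 differences (TGF-β1 minus untreated) of −1.86 for Rrm2 over Rrm1, 1.64 for Prim2 over Prim1, 1.15 for Orc6 over Orc1, 0.71 for Dbf4 over Cdc7 and −0.56 for Rpa2 over Rpa1. Each had an exact p of 0.0286 and, adjusted over the 10 pairs, 0.0571, so 0 of 10 pass the threshold. The other 5 overlapped, at −0.57 for Ccne2 over Ccne1 (exact p = 0.0857), −0.45 for Chaf1b over Chaf1a (exact p = 0.143), 0.61 for Pole2 over Pole (exact p = 0.200), −0.33 for Cdt1 over Gmnn (exact p = 0.229) and 0.28 for Pola2 over Pola1 (exact p = 0.400). Leaving out TGF-β1 replicate 1 or replicate 4 brings 6 of the 10 to an adjusted p of 0.0476 in each case. Without any other single library no pair passed, so passing depends on which library is left out.

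Position gave a further comparison. Of the 45 genes, 18 have an annotated neighbour that starts within 1000 bases on the opposite strand, and 11 of these neighbours were tested. The median change of the 11 was 0.01, the same as over all genes tested, while the replication genes of these pairs had −1.41. Of the 11, 9 were not called, and over all genes tested 36% were called. Afmid had only 12 to 36 counts per library and Pxmp2 only 6 to 23. Whether these neighbours differ from genes at large was not tested. Ufd1, beside Cdc45, rose by 0.22 ± 0.06 (adjusted p = 0.00378; 0.0740 with library totals), and Ap4m1, beside Mcm7, fell by 0.37 ± 0.13 (adjusted p = 0.0238), a call lost without TGF-β1 replicate 1, TGF-β1 replicate 4 or untreated replicate 4 (adjusted p 0.0615 to 0.0974). Mcm4 and the DNA repair kinase gene Prkdc start 466 bases apart. The count of Mcm4 over that of Prkdc was 1.14, 0.968, 0.803 and 0.799 in the TGF-β1 libraries, against 2.08, 2.38, 2.54 and 2.54 in the untreated libraries. These do not overlap, and the log2 difference was −1.37. Likewise Orc1 starts 87 bases from Prpf38a, a splicing factor gene that was not called at 0.07 ± 0.06. In a test added after the data were seen, the mean log2 ratio of gene to neighbour was lower with TGF-β1 in all 11 pairs. It passed in 10 of the 11 (exact permutation test, p = 0.0286, adjusted over 11 pairs p = 0.0314). Pole over Pxmp2 did not pass (−1.17, adjusted p = 0.0857), and its groups overlap. The replication genes of these pairs were already called lower, and 9 of the neighbours were not called. The ratio test therefore restates those calls and is no separate evidence. For Tk1 over Afmid the adjusted p passed the threshold in 3 of the 8 sets that leave out 1 library, and for Dbf4 over Slc25a40 in 6 of 8.

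**Figure D5:**
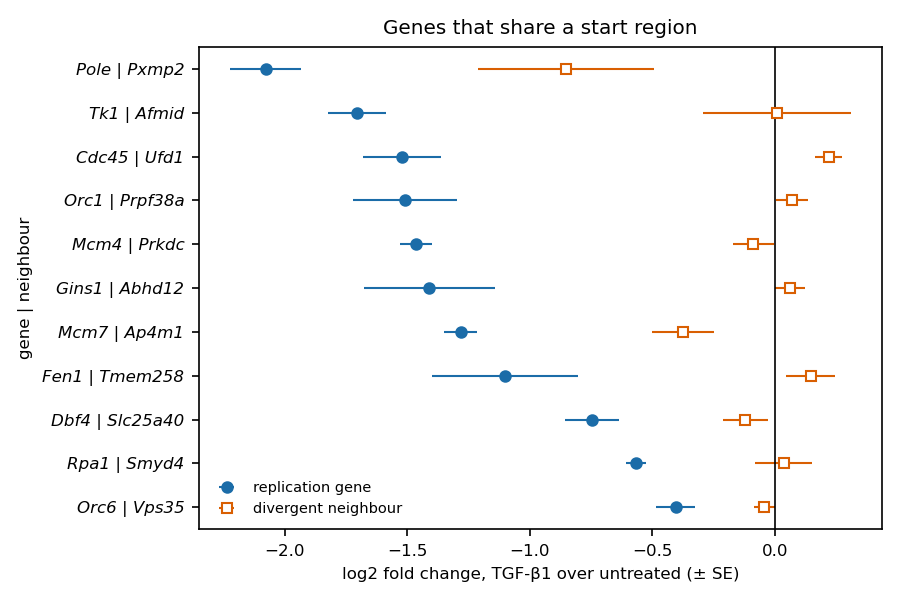
Log2 fold change, TGF-β1 over untreated (x axis, ± SE, 4 against 4 libraries), of 11 replication genes and of the neighbour that starts within 1000 bases on the opposite strand (rows are pairs). The replication genes lie between −2.08 and −0.40, and the neighbours between −0.85 and 0.22, with Pxmp2 the lowest.

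Between libraries of 1 group the median deviation over the 45 genes was small, while single genes with few reads varied more. With TGF-β1, Gmnn ran from 1.13 to 3.34 CPM, Pole2 from 0.846 to 2.56 CPM, Orc1 from 1.07 to 2.54 CPM and Ccne2 from 1.38 to 3.10 CPM. Untreated replicate 3 was below its group's mean for 33 of the 45 genes (median deviation −0.06 on the log2 scale) and untreated replicate 4 above it for 29, while in the other 6 libraries 19 to 26 genes lay above the mean. For the mitosis genes the same measure was −0.20 in TGF-β1 replicate 2 and 0.15 in TGF-β1 replicate 3. These median deviations are small beside the median change of −1.40 between the groups.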

How the data were processed

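Poly(A)-selected RNA of 8 cultures was sequenced. The authors deposited 1 table of raw counts per gene and 1 table of FPKM values, which are counts per gene length and a library size. That size was 0.971 to 0.994 times the library total with TGF-β1 and 1.03 to 1.07 times it untreated. FPKM values therefore already carry a scaling between the groups in the same direction as TMM, and the limma fits on FPKM share it. Per the submitters' processing notes CASAVA, HISAT2, featureCounts and Subread were used, without versions. Strand use in counting: not given in the sources used here. Those notes name GRCm38 and the series design mm39; of 21778 coding genes matched by identifier, 99.9% lie where GRCm39 has them, so positions are read as GRCm39. Libraries held 14340740 to 17176898 counts, and the 4 replicates of a group measure the spread between cultures of different litters.

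The low-count filter filterByExpr (minimum count 10, minimum total 15) kept 13960 genes. TMM scaling (factors 0.958 to 0.979 with TGF-β1, 1.016 to 1.052 untreated) was followed by a two-sided quasi-likelihood test with group as its term (edgeR 4.0.16, limma 3.58.1, DESeq2 1.42.0, R 4.3.3), after a test on simulated data. Adjusted p is Benjamini-Hochberg over all genes tested, and a gene was called under 0.05. CPM are TMM-scaled, ± values of log2 fold changes are SE, and ± values of CPM and FPKM are SD. Levels are compared between genes as FPKM. Count ratios of 2 genes are not scaled for gene length, so they compare libraries and not the levels of the 2 genes. Shared exons were looked up in GENCODE M39, and neighbouring genes were found from the deposited gene coordinates. No pair of replicates agreed within sampling noise (mean chi-square per gene 3.22 to 11.0 within TGF-β1 and 2.95 to 3.19 among untreated replicates 2 to 4). Untreated replicate 1 stood apart, at 27.7 to 31.4 against each of those. This measure includes ribosomal RNA genes, which took 0.0322% of the counts in that library and 2.05 to 2.40% in the other untreated ones. Their part in the difference was not tested. The members and lists were chosen with earlier results of these data known. In each role the gene with the deepest fall, the highest FPKM and the smallest change got its value in every sample. In each further list up to 3 genes with the smallest and 2 with the largest p were to be named, and other genes named were chosen after their values were seen. A gene that this rule names is not reported here. Alternatives were other scalings, filters, tools, units, a replicate block and leaving out each library.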

Additional observations from a re-analysis of the deposited data

Results flagged for a closer look

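Of the 90 groups of 4 values (45 genes in 2 groups), 8 held a library far from the other 3 by Dixon's criterion, which chance gives in about 1 in 20. Mcm5 had 6.62 CPM in TGF-β1 replicate 4, against 4.08 to 4.16 CPM in the other TGF-β1 libraries, and 34.4 CPM in untreated replicate 3, against 36.9 to 37.0 CPM in the other untreated libraries. Gins2 had 5.15 CPM in TGF-β1 replicate 1 (others 4.29 to 4.42 CPM) and 10.4 CPM in untreated replicate 3 (others 12.5 to 12.7 CPM). Rpa1 had 77.1 CPM in TGF-β1 replicate 4 (others 73.1 to 73.7 CPM), and Rpa2, its partner, had 8.66 CPM in TGF-β1 replicate 3 (others 5.74 to 6.14 CPM). Ccne1 was low in TGF-β1 replicate 2, at 2.56 CPM (others 4.58 to 4.79 CPM). Rfc2 had 31.6 CPM in untreated replicate 2 (others 24.8 to 25.7 CPM), and without that library Rfc2 was not called. The calls of the other 5 genes did not change without any single library.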

How the results depend on the processing

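All 45 genes kept a negative log2 fold change in every alternative run, but sizes shrank with limma on log2(FPKM + 1), where the pseudocount compresses low genes. There the median of the 45 was −0.84 against −1.40, with −1.06 for Cdc6 and −0.65 for Mcm10. All 45 were called except that Rfc2 was lost in 5 settings (limma on log2(FPKM + 1) and log2(FPKM + 0.1), without TGF-β1 replicate 1 or 4, without untreated replicate 2), which left 44. Over all genes, leaving out 1 library gave 2155 to 2286 that rose and 2351 to 2487 that fell, and library totals gave 1301 that rose. Of the other replication and S-phase genes 2 rose, against 0 with library totals, 1 with upper-quartile factors, DESeq2 or either limma fit, and 1 to 3 without 1 library. The replicate block (samples sharing a replicate number) gave 4971 calls against 5030, and 45 genes fell. Deviations of samples sharing a number correlated at −0.04 to 0.05, against −0.06 to 0.11 for samples with different numbers. These values show no sign that the numbers pair the samples, but they cannot exclude it. With 1 library left out, log2 ratio differences ran from −0.59 to −0.24 for Cdt1 over Gmnn, −1.96 to −1.80 for Rrm2 over Rrm1, −0.75 to −0.38 for Ccne2 over Ccne1, 0.88 to 1.34 for Orc6 over Orc1, 1.57 to 1.73 for Prim2 over Prim1, −0.71 to −0.51 for Rpa2 over Rpa1 and 0.54 to 0.81 for Dbf4 over Cdc7. The cause of these shifts was not tested. Under the replicate block the smallest p for a ratio is 0.125. Depth limits the genes with the fewest reads, and Fen1, Gins1 and Pole2 have the largest SE of the 45.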

Other observations

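Of the 45 genes, 9 share over 20% of their exonic bases in GENCODE M39 with other annotated genes, where counting without strand could exchange reads, and 22 share none. Gins2 shares 67.3% with Gse1, which was not called (−0.14 ± 0.08, adjusted p = 0.191). Rfc5 shares 41.4% with Wsb2, which rose by 0.21 ± 0.04 (adjusted p = 1.13e-04) while Rfc5 fell by 1.02 on the log2 scale. Rfc4 shares 29.0% with Eif4a2, which was not called (0.09 ± 0.04, adjusted p = 0.127) and had 3085 to 4129 counts with TGF-β1 and 3117 to 3784 counts untreated, many times those of Rfc4. Rrm2 shares 43.3% with Gm59512, a noncoding RNA gene with no row in the count table. The pseudogenes Pcna-ps1 and Tyms-ps had 0 counts in every library.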
